A study of Mus musculus with 8 samples.

Results

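A set of 8 genes for secreted or matrix-acting proteins other than cytokines were followed in helper T cells that lack T-bet, STAT6 or both: Areg, Npy, Cpe, Esm1, Mmp13, Timp1, Fam20a and Sema7a. All 8 of 8 were found by symbol among the 11841 genes of the deposited table. They were selected on a large rise in FPKM over wild type in at least 1 mutant, with no numeric threshold, so their differences from wild type are given as a description and were not tested. FPKM is the number of sequenced fragments of a gene scaled to transcript length and to library size, so levels can be set side by side between genes.

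The cells were CD44+ CD4+ T cells, that is, helper T cells bearing a marker of past activation, from lymph nodes that drain the skin. The mice were BALB/cAJcl, and they were wild type (WT), T-bet-/- (called T-bet-null), STAT6-/- (STAT6-null) or T-bet-/- STAT6-/- (double-null). The cells of all 4 genotypes, WT included, had been stimulated with PMA and ionomycin for 2 h. PMA and ionomycin act downstream of the T cell receptor, so every level below is that of a stimulated cell. Each genotype had 2 libraries, 8 in all. Whether both libraries of a genotype stem from different animals is not said in the labels, so p-values here reflect the spread of these samples alone, and that spread may be technical. Age, sex, the deleted exons and the way the alleles were made were not given in the sources used here.

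T-bet is the transcription factor of Th1 cells, and STAT6 is activated by the receptors for IL-4 and IL-13 and drives Th2 cells. Besides cytokines, activated helper T cells release proteins that act on the tissue around them: growth factors for epithelium, enzymes that cut collagen and their inhibitors, peptides shared with the nervous system, and membrane-anchored guidance proteins. Such products are known from skin and barrier inflammation, where T cells meet keratinocytes, fibroblasts, vessels and nerve endings.

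Tbx21, which encodes T-bet, lay between 1.44 and 2.49 FPKM in the T-bet-null and double-null libraries and between 30.8 and 102 FPKM in the other 4. Stat6 lay between 26.9 and 31.6 FPKM in the STAT6-null and double-null libraries and between 88.8 and 90.9 FPKM in the other 4. All 13 of 13 CD4 T cell identity genes were in the table, with a summed level of 3510 to 4257 FPKM. Against WT, 1 of the 13 was higher (34.2% of all genes) and 9 lower (36.3%) in T-bet-null cells at an adjusted p under 0.05. In STAT6-null cells 5 were higher (34.9%) and 6 lower (36.1%), and in double-null cells 4 and 7. Cd4 stood at 195 and 208 FPKM in WT and at 88.1 and 110 in double-null libraries. Cd44 stood at 251 and 282 FPKM in WT and at 389 and 362 in double-null libraries. The WT libraries stood apart: 36.3% of 10281 genes were higher and 36.7% lower in double-null than in WT cells at an adjusted p under 0.05. The 2 haemoglobin genes in the table summed to 224 and 442 FPKM in WT and to 2.63 to 7.48 FPKM in the 6 mutant libraries. The 4 Y-linked genes summed to 104 and 110 FPKM in WT, 33.7 to 43.2 in the single mutants, and 29.5 and 67.9 in double-null replicates 1 and 2. Fewer cells of a type and less RNA per cell cannot be told apart in these bulk samples, and the part of red cells or of the sex of the mice in the differences from WT was not tested.

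The 8 genes were set in 3 groups by their course across the mutants, and some traits are shared between groups. Areg, Npy, Cpe and Esm1 were at their highest in double-null cells and not called higher in STAT6-null than in T-bet-null cells. Of these, Areg, Npy and Esm1 had no called difference between the single mutants, and Cpe was lower in STAT6-null than in T-bet-null cells. Mmp13 and Timp1 stood higher in each mutant than in WT and higher in STAT6-null than in T-bet-null cells. Mmp13 was also highest in both double-null libraries. Fam20a and Sema7a shared these 2 traits of Mmp13 and Timp1 but were at their highest in STAT6-null cells. All 8 were at least 2-fold above WT in double-null cells on the log2(FPKM + 1) scale, as were 6.25% of all genes tested. The level was at least 2-fold above WT for 4 of 8 in T-bet-null cells, against 4.28% of all genes, and for 4 of 8 in STAT6-null cells, against 4.55%. On FPKM itself 5 of 8 were at least 2-fold above WT in each single mutant, since Fam20a (4.87-fold in T-bet-null cells, from few fragments) and Npy (2.07-fold in STAT6-null cells) then passed. With a pseudocount of 0.1 FPKM in place of 1, the genes at least 2-fold above WT numbered 656 instead of 440 in T-bet-null and 669 instead of 468 in STAT6-null cells. These counts restate how the genes were chosen.

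**Figure D1:**
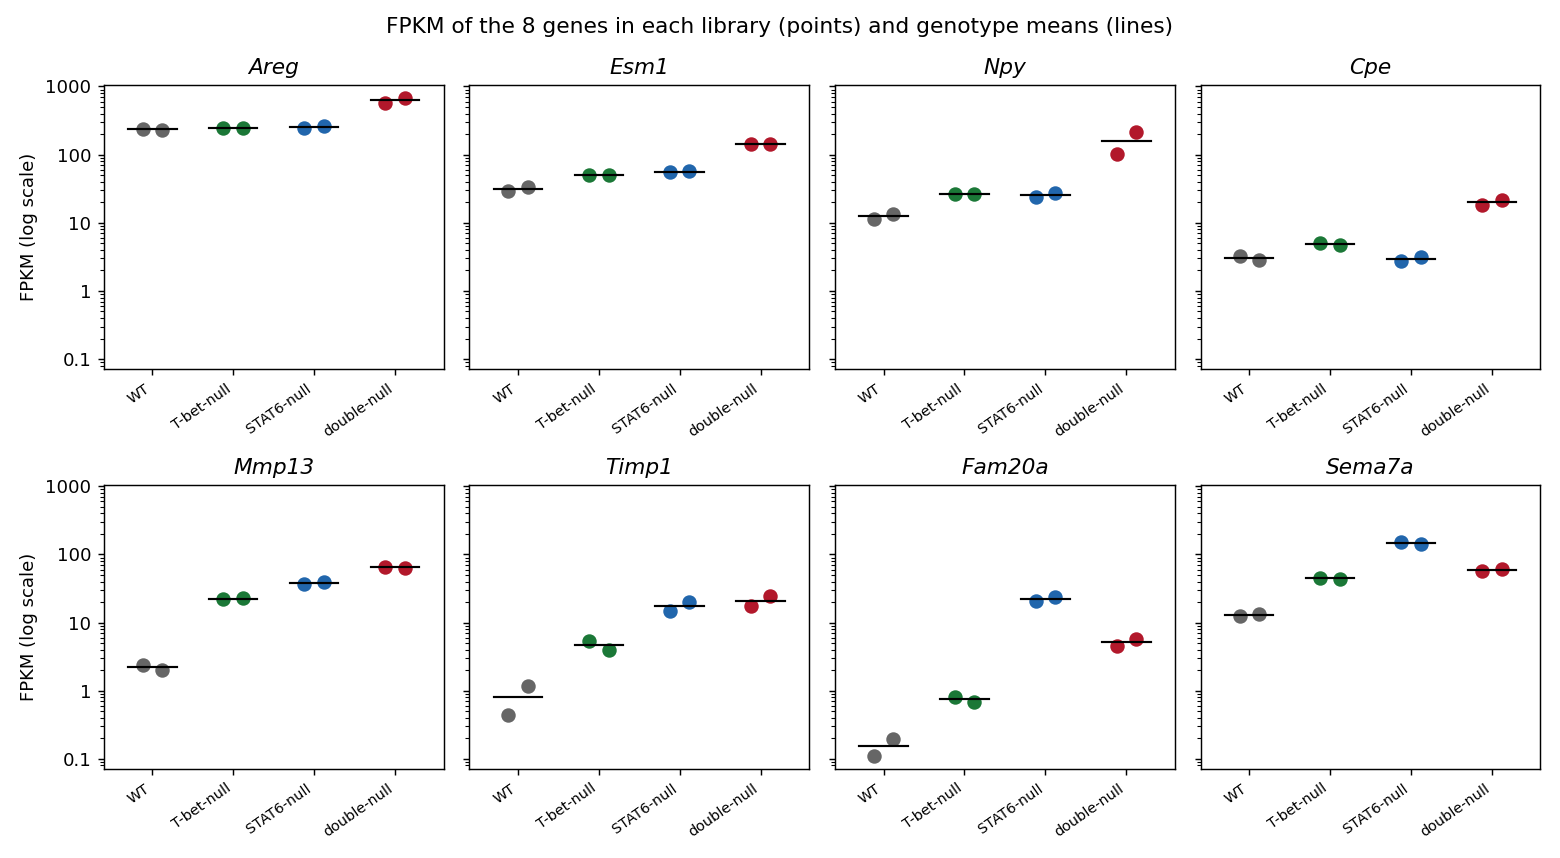
FPKM of each of the 8 genes on a shared log scale, with 1 point per library (2 per genotype) and a line at the genotype mean. Areg, Esm1, Npy and Cpe are highest in both double-null libraries, Mmp13 rises through the mutants, and Fam20a and Sema7a are highest in both STAT6-null libraries.

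Differences between mutants involve no WT library and were tested with limma over all 10281 genes. The same mutant libraries had entered the choice of the genes, so these tests are not independent of it. For Areg, whose single mutants lay close to WT, a higher double-null level restates the choice. The same holds for Cpe against STAT6-null cells, which lay at the WT level. Fam20a was below 1 FPKM in all WT and T-bet-null libraries, so it passed the filter only through STAT6-null and double-null cells. Its higher level there than in T-bet-null cells thus follows in part from the choice and the filter. The adjusted p-values of the 8 genes set each difference against the spread of the replicates and are no separate evidence. Double-null cells had more of all 8 genes than T-bet-null cells, where 16.4% of all genes were called higher and 16.2% lower. Against STAT6-null cells, 5 of 8 were higher (11.3% of all genes), Fam20a and Sema7a were lower (8.63%), and Timp1 did not pass. STAT6-null cells had more of Mmp13, Timp1, Fam20a and Sema7a than T-bet-null cells (12.3% of all genes were higher), less of Cpe (14.9% lower), and no called difference in Areg, Npy or Esm1. The median difference of the 8 genes was 1.66, 1.01 and 0.44 on the log2(FPKM + 1) scale in these 3 comparisons, against 0.01, 0.01 and -0.03 over all genes.

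**Figure D2:**
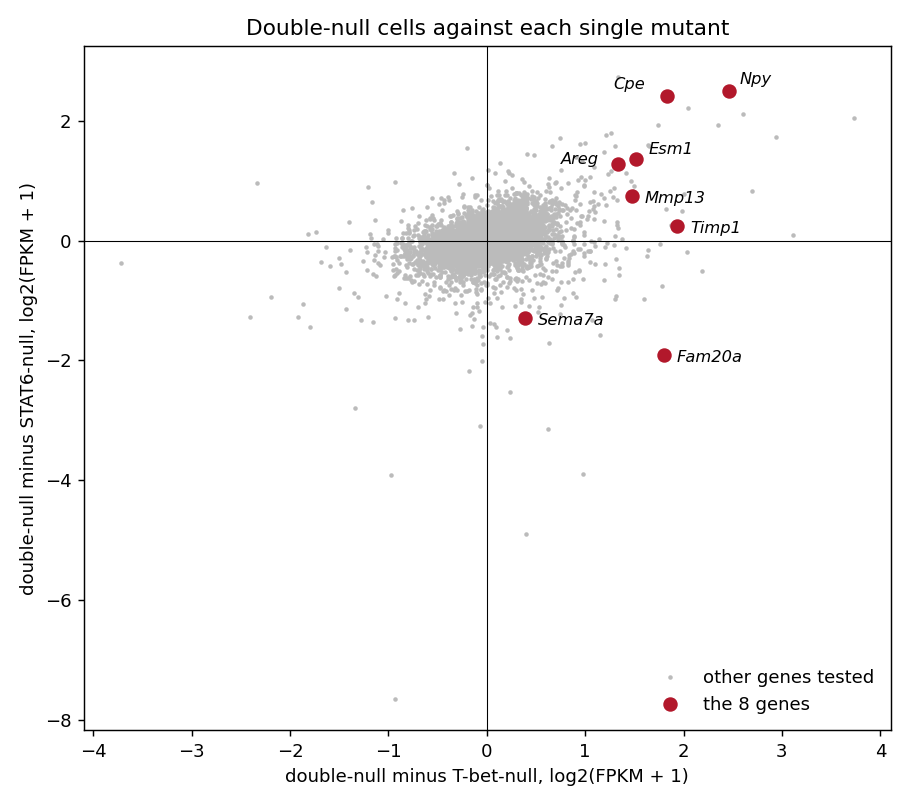
Each point is 1 of the genes tested, placed by the difference of double-null from T-bet-null cells (x axis) and from STAT6-null cells (y axis), both on log2(FPKM + 1). Npy and Cpe lie at the upper right, at 2.46 and 1.84 on the x axis and 2.50 and 2.41 on the y axis, while Fam20a and Sema7a lie below 0 on the y axis.

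**Figure D3:**
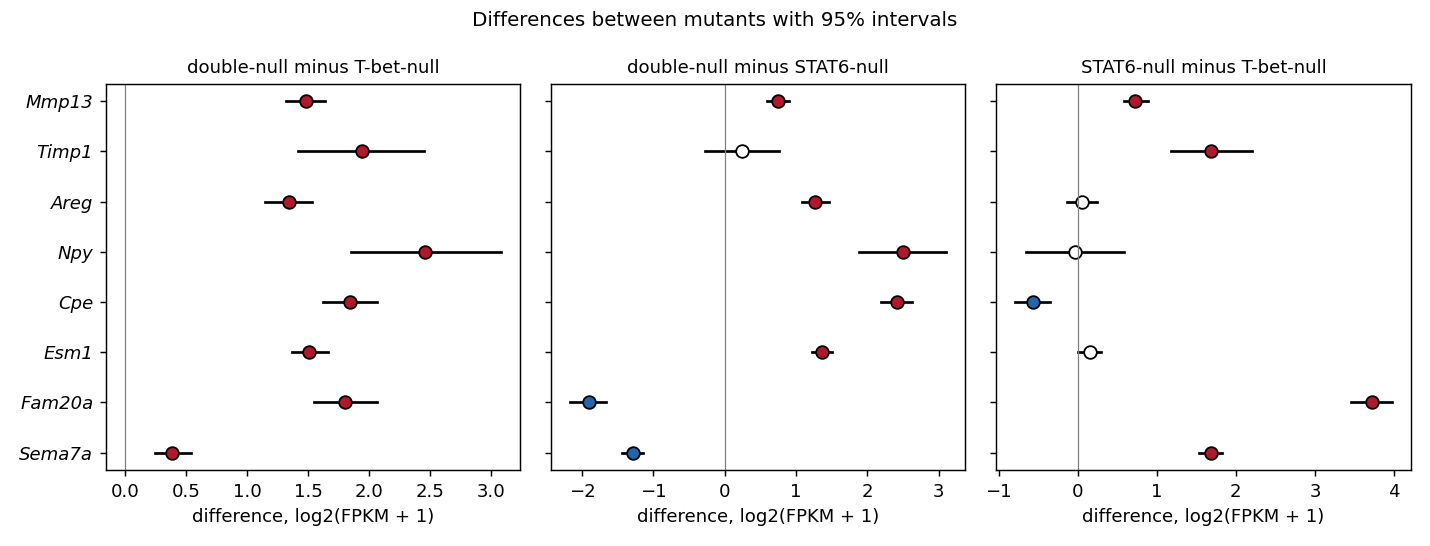
Difference between mutants for each gene on log2(FPKM + 1), with the 95% interval from limma. Filled red points were called higher, filled blue points lower, and open points did not pass at an adjusted p of 0.05. The widest intervals are those of Npy and Timp1.

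Areg encodes amphiregulin, a ligand of the EGF receptor that is made as a membrane protein and cut free, and that acts on epithelium in repair. The gene lies at chr5:91139599-91148432 on the plus strand (build mm10, RefSeq coordinates). It was already among the abundant transcripts in WT cells, with 241 and 230 FPKM, a level above 97.4% of genes. The single mutants were close to that, with 247 and 244 FPKM in T-bet-null and 249 and 264 FPKM in STAT6-null libraries. The double-null libraries had 568 and 681 FPKM, more than any other library. On means this was 2.55 times the T-bet-null level and 2.43 times the STAT6-null level, with differences of 1.34 ± 0.08 (log2 ± SE, adjusted p = 2.19e-05) and 1.27 ± 0.08 (adjusted p = 2.96e-05, n = 2 per genotype). The single mutants differed by 0.06, with a 95% interval of -0.13 to 0.25 (adjusted p = 0.599). Areg thus qualified through the double-null cells alone among the 3 mutants, and its 2.65-fold rise there was the smallest of the 8.

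Of 16 other genes listed as EGF family ligands, receptors or shedding factors, 6 were in the table and 5 were tested. Between double-null and T-bet-null cells 1 was higher (16.4% of all genes) and 0 were lower (16.2%), with a median of 0.07. Between double-null and STAT6-null cells 1 was higher (11.3%) and 1 lower (8.63%), with a median of -0.05. Hbegf, another ligand of the EGF receptor, did not follow Areg: it stood at 1.52 and 1.30 FPKM in WT, 8.76 and 7.85 in T-bet-null, 4.30 and 5.08 in STAT6-null and 8.49 and 8.62 in double-null libraries. Adam17, the protease that frees amphiregulin from the membrane, stood at 63.0 and 65.9 FPKM in WT, 40.7 and 41.7 in T-bet-null, 49.0 and 49.6 in STAT6-null and 44.9 and 46.5 in double-null libraries. Its difference of double-null from T-bet-null cells was 0.15 (adjusted p = 0.0557) and from STAT6-null cells -0.11 (adjusted p = 0.172). Egfr is not in the table.

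Npy encodes neuropeptide Y, a peptide of sympathetic nerves and of the brain that immune cells can also make. Its locus is chr6:49822710-49829507 on the plus strand. Npy was at 11.2 and 13.6 FPKM in WT, 26.4 and 26.1 in T-bet-null and 23.7 and 27.6 in STAT6-null libraries. The double-null libraries had 103 and 216 FPKM, both above all others but 2.11 times apart. Among 651 genes of like level in double-null cells, 99.8% had a smaller ratio between the libraries, and their median ratio was 1.06. The library with more Npy was replicate 2, which also had the higher Y-linked sum; whether the 2 are related was not tested. The difference from T-bet-null cells was 2.46 ± 0.27 (adjusted p = 0.000347) and from STAT6-null cells 2.50 ± 0.27 (adjusted p = 0.000507). It was 1.93 and 1.97 without double-null replicate 2 and 3.0 and 3.03 without replicate 1. The size of the Npy difference is therefore known less well than its direction. T-bet-null and STAT6-null cells differed by -0.04, with a 95% interval of -0.65 to 0.58.

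Cpe encodes carboxypeptidase E, which trims basic residues from the ends of peptide hormones, neuropeptide Y among them, in secretory granules. Cpe is located at chr8:64592542-64693109 on the minus strand. Cpe was at 3.23 and 2.82 FPKM in WT and at 2.79 and 3.13 FPKM in STAT6-null libraries, which overlap. T-bet-null libraries had slightly more, 5.06 and 4.70 FPKM, and double-null libraries had 18.3 and 21.8 FPKM. On means the double-null level was 4.11 times that of T-bet-null cells (1.84 ± 0.10, adjusted p = 7.79e-06) and 6.78 times that of STAT6-null cells (2.41 ± 0.10, adjusted p = 2.23e-06). Of the 8 genes, Cpe was the only one called lower in STAT6-null than in T-bet-null cells (-0.57 ± 0.10, adjusted p = 0.00292).

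The other neuropeptide genes and processing enzymes did not share this course as a group. Of 30 listed, 16 were in the table and 11 were tested. Between double-null and T-bet-null cells 3 were higher (16.4% of all genes) and 3 lower (16.2%), with a median of -0.04. Between double-null and STAT6-null cells 3 were higher (11.3%) and 1 lower (8.63%), with a median of 0.12. Furin, a protease that cuts precursors in the secretory pathway, was higher in double-null cells than in T-bet-null (0.74, adjusted p = 5.07e-05) and STAT6-null cells (0.51, adjusted p = 0.00053), with 664 and 675 FPKM in double-null and 241 and 251 FPKM in WT libraries. Scg2, which encodes the granule protein secretogranin II, was higher in both comparisons too (1.28 and 0.72, adjusted p = 2.65e-05 and 0.000648) and went from 1.63 and 1.66 FPKM in WT to 21.2 and 25.3 FPKM in double-null libraries. Cpd, a carboxypeptidase of the Golgi related to Cpe, was not called in either (-0.05 and 0.12, adjusted p = 0.651 and 0.27). Penk, the enkephalin precursor, was lower in double-null than in STAT6-null cells (-0.83, adjusted p = 0.00243). Pam, the enzyme that amidates peptides such as neuropeptide Y, stood at 1.23 and 0.804 FPKM in WT and at 0.153 to 0.592 FPKM in the 6 mutant libraries, and was below the level needed for a test. Npy1r, a receptor of neuropeptide Y, lay between 0.569 and 0.894 FPKM in all 8 libraries and was not tested either.

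Esm1 encodes endocan, a small secreted proteoglycan first described in endothelial cells. The gene lies at chr13:113209659-113218104 on the plus strand and overlaps Gzmk, which is not in the table, on the other strand. Whether reads were assigned by strand was not given in the sources used here, so a share of reads from that gene cannot be told apart. Esm1 was at 29.6 and 33.4 FPKM in WT, 50.6 and 49.6 in T-bet-null, 55.0 and 56.8 in STAT6-null and 145 and 145 in double-null libraries. No genotype overlapped another, and the double-null replicates agreed more closely than in almost all of 732 genes of like level (0.41% had a smaller ratio). Double-null cells had 2.89 times the T-bet-null level (1.51 ± 0.06, adjusted p = 2.33e-06) and 2.59 times the STAT6-null level (1.36 ± 0.06, adjusted p = 3.43e-06). STAT6-null and T-bet-null cells differed by 0.15, with a 95% interval of 0.01 to 0.30 (adjusted p = 0.0985). That small difference passed without WT replicate 1 (adjusted p = 0.0428), without WT replicate 2 (0.0431) and without the WT libraries (0.041). Of 16 other proteoglycan genes and chain enzymes tested (27 listed, 19 in the table), 4 were higher and 1 lower in double-null cells than in T-bet-null ones (median -0.01) and 1 was higher and 2 lower than in STAT6-null cells (median -0.06). Sdc4, which encodes the heparan sulfate proteoglycan syndecan 4, stood at 2.52 and 2.64 FPKM in T-bet-null and at 5.71 and 6.50 FPKM in double-null libraries (0.99, adjusted p = 0.000175), but WT libraries already had 6.62 and 6.90 FPKM.

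Esm1 has its most defined expression in endothelium, so markers of vessels and stroma were read beside it. Pecam1 and Col1a1 were the 2 of 16 such markers in the table. Their sum was 24.2 and 26.0 FPKM in WT, 10.5 to 10.8 in T-bet-null, 8.15 to 8.78 in STAT6-null and 10.7 to 11.3 in double-null libraries. Nearly all of that sum was Pecam1, with 25.8 and 23.9 FPKM in WT and 10.1 and 10.3 in double-null libraries. Col1a1, a collagen gene of fibroblasts, went the other way at a low level, from 0.222 and 0.223 FPKM in WT to 0.595 and 0.993 in double-null libraries, with 0.381 to 0.576 in the single mutants. Cdh5, Kdr and Tek, which define endothelium, are not in the table. Of 12 markers of mast cells, basophils and eosinophils, Kit alone was in the table. Kit was highest in the double-null libraries, but unlike Areg, Npy, Cpe and Esm1 it was below WT in T-bet-null libraries. It stood at 18.1 and 18.6 FPKM in WT and at 8.67 and 8.11 in T-bet-null libraries. STAT6-null libraries had 32.5 and 34.0 FPKM, and double-null libraries 56.7 and 62.9. Among markers of CD8 T, NK and innate lymphoid cells, the 6 genes Cd8b1, Klrk1, Il1rl1, Klrg1, Il7r and Zbtb16 summed to 88.7 and 89.3 FPKM in WT, 115 to 118 in T-bet-null, 111 to 113 in STAT6-null and 117 to 118 in double-null libraries. The 4 of 8 keratinocyte markers in the table (Krt10, Dsp, Sfn and Perp) summed to 11.4 to 11.7 FPKM in WT, 38.7 to 40.9 in T-bet-null, 57.4 to 58.1 in STAT6-null and 48.8 to 55 in double-null libraries, while Krt5, Krt14 and Krt1 are not in the table. Most of that sum was Perp, with 8.34 and 8.86 FPKM in WT and 46.3 and 52.2 in double-null libraries. Dsp was also higher, with 0.258 and 0.395 FPKM in WT and 1.22 and 1.08 in double-null libraries. Sfn was at 2.06 and 1.83 FPKM in WT, 5.67 and 3.74 in STAT6-null and 0.653 and 0.754 in double-null libraries. Krt10 lay between 0.501 and 0.993 FPKM in all 8 libraries. The 9 of 15 myeloid markers summed to 158 to 309 FPKM and the 5 of 11 B cell markers to 1.78 to 6.96 FPKM, with neither highest in double-null cells. The part of other cells in the levels of the 8 genes was not tested.

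Among 131 other genes whose genotype means span at least 2 on the log2(FPKM + 1) scale, those closest in course to the first 4 genes overlapped from gene to gene. Pearson r over the 8 libraries, which fall into 4 genotypes and are given as a description, was 0.985 between Areg and Il23r, which encodes a receptor chain for IL-23. It was 0.986 between Cpe and Il23r, 0.990 between Npy and Pkdcc, and 0.990 between Esm1 and Il17f, a cytokine gene of Th17 cells. Pkdcc was among the 3 closest for Areg, Npy and Cpe, and Il17a for Npy, Cpe and Esm1. Il23r stood at 4.25 and 4.34 FPKM in WT, 5.94 and 6.21 in T-bet-null, 4.4 and 6.08 in STAT6-null and 20.5 and 25 in double-null libraries. Il17a, the main cytokine of Th17 cells, stood at 270 and 243 FPKM in WT and at 2374 and 2620 FPKM in double-null libraries, with 500 to 617 FPKM in the single mutants.

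Mmp13 encodes collagenase 3, a secreted protease that cuts fibrillar collagen. Its locus is chr9:7272514-7283333 on the plus strand. Mmp13 was at 2.37 and 2.04 FPKM in WT, 22.2 and 22.7 in T-bet-null, 36.4 and 39.6 in STAT6-null and 65.5 and 63.2 in double-null libraries. The 4 genotypes formed a series without overlap, and replicates were within 1.16 times of each other. Double-null cells had 2.87 times the T-bet-null level (1.48 ± 0.07, adjusted p = 4.36e-06) and 1.69 times the STAT6-null level (0.75 ± 0.07, adjusted p = 0.000223), and STAT6-null cells had 1.69 times the T-bet-null level (0.73 ± 0.07, adjusted p = 0.00012). Against WT, the difference of Mmp13 in double-null cells was 4.35 on log2(FPKM + 1).

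The gene closest in course to Mmp13 was Mmp10, which encodes stromelysin 2, with r = 0.999 over the 8 libraries. Both belong to a cluster of metalloproteinase genes on chromosome 9, in which Mmp10 (chr9:7502342-7510242) starts 219.0 kb beyond the end of Mmp13 and Mmp3 (chr9:7445822-7455975), for stromelysin 1, starts 162.5 kb beyond it. Mmp10 was at 12.8 and 11.8 FPKM in WT, 49.0 and 52.1 in T-bet-null, 76.1 and 80.5 in STAT6-null and 120 and 117 in double-null libraries. Mmp3 had 0.393 and 0.339 FPKM in WT, 1.47 and 1.68 in T-bet-null, 2.53 and 2.65 in STAT6-null, and 3.59 and 3.76 in double-null libraries. Thus Mmp3 and Mmp10, which are not among the 8 genes, had the same order of genotypes as Mmp13. Mmp10 was higher in double-null cells than in T-bet-null (1.21, adjusted p = 6.34e-06) and STAT6-null cells (0.59, adjusted p = 0.000369), and so was Mmp3 (0.86 and 0.38, adjusted p = 0.000137 and 0.0108). The other 7 Mmp genes of the cluster in the RefSeq gene table, Mmp12, Mmp1b, Mmp1a, Mmp8, Mmp27, Mmp20 and Mmp7, are not in the deposited table.

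**Figure D4:**
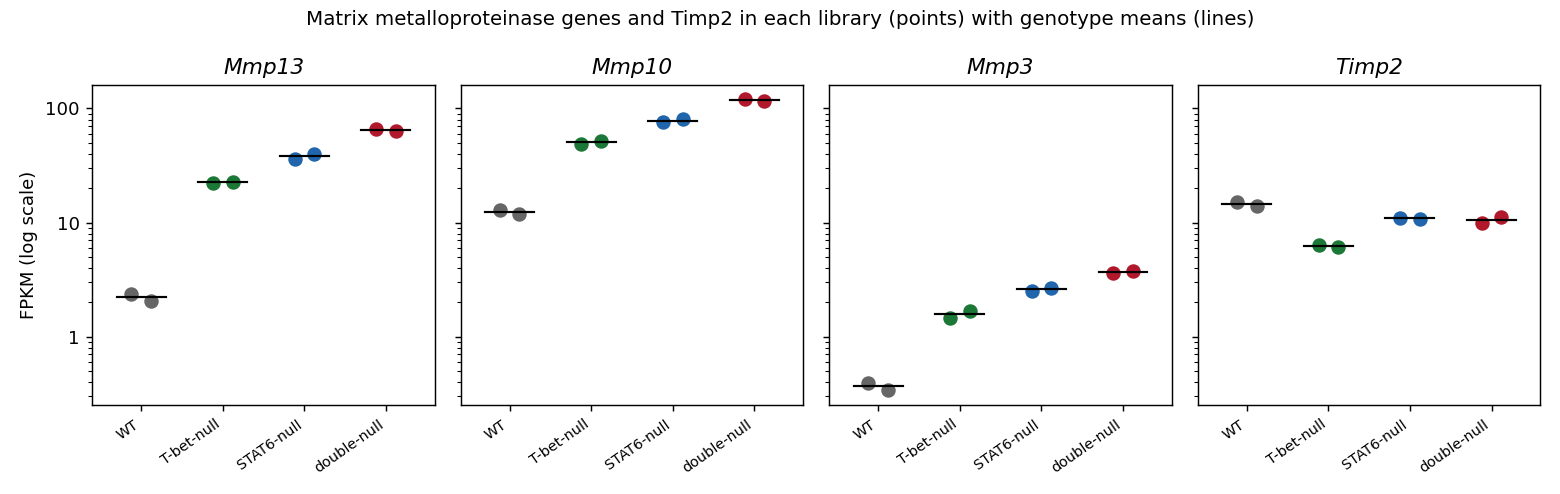
FPKM of Mmp13, its cluster neighbours Mmp10 and Mmp3, and the inhibitor gene Timp2 on a shared log scale, with 1 point per library and a line at the genotype mean. The 3 protease genes climb from WT through T-bet-null and STAT6-null to double-null cells, while Timp2 is highest in WT.

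Timp1 encodes a secreted inhibitor of metalloproteinases that also acts as a growth factor. The gene lies at chrX:20870166-20874737 on the plus strand, within Syn1 on the other strand (not in the table). Timp1 was at 0.443 and 1.16 FPKM in WT, 5.39 and 4.01 in T-bet-null, 14.9 and 20 in STAT6-null and 17.4 and 24.5 in double-null libraries. The WT values stand for roughly 8 and 21 fragments, so the fold over WT is poorly fixed. Replicates differed by 1.34 to 2.61 times, more than in 98.1% to 99.4% of genes of like level in each genotype, which makes Timp1 the least reproducible of the 8 across genotypes. T-bet-null cells were lowest of the mutants: double-null cells had 4.45 times their level (1.94 ± 0.23, adjusted p = 0.00047) and STAT6-null cells 3.72 times (1.69 ± 0.23, adjusted p = 0.000873). Double-null and STAT6-null libraries overlapped, with a difference of 0.24 and a 95% interval of -0.27 to 0.76 (adjusted p = 0.496), so neither a lower nor a higher level is set apart. Slc37a2, a sugar phosphate transporter gene, was among the 3 closest in course (r = 0.985).

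Timp2, a second inhibitor of the family, went another way. It stood at 15.0 and 13.9 FPKM in WT, 6.41 and 6.16 in T-bet-null, 11 and 10.8 in STAT6-null and 9.95 and 11.1 in double-null libraries, and was lower in double-null than in WT cells (-0.43, adjusted p = 0.000474). Of 16 other metalloproteinase, ADAM, inhibitor and plasminogen activator genes tested (33 listed, 17 in the table), 8 were higher and 1 lower in double-null cells than in T-bet-null ones (median 0.29) and 7 were higher and 0 lower than in STAT6-null cells (median 0.03). In STAT6-null against T-bet-null cells 6 were higher (12.3% of all genes) and 4 lower (14.9%), with a median of -0.04. Adamts6, a secreted protease, was the 1 called lower in double-null than T-bet-null cells (-1.15, adjusted p = 3.99e-05). In double-null against WT cells the list split evenly, with 5 higher and 5 lower of 16. All genes split about as evenly, with 36.3% higher and 36.7% lower, so this is not particular to the list.

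Fam20a encodes a secretory pathway pseudokinase that binds and activates the kinase FAM20C, which phosphorylates secreted proteins. Fam20a is located at chr11:109669746-109723163 on the minus strand. Fam20a was at 0.111 and 0.196 FPKM in WT, about 5 and 10 fragments and close to the 0.1 FPKM above which all values of the table lie. T-bet-null libraries had 0.801 and 0.694 FPKM, STAT6-null libraries 20.6 and 23.4, and double-null libraries 4.49 and 5.78. The genotypes did not overlap. STAT6-null cells had more than T-bet-null cells by 3.72 ± 0.11 (adjusted p = 1.67e-07), and double-null cells had 0.234 times the STAT6-null level (-1.91 ± 0.11, adjusted p = 1.5e-05) while exceeding T-bet-null cells (1.80 ± 0.11, adjusted p = 2.19e-05). These differences understate the change of so low a gene: with a pseudocount of 0.1 FPKM in place of 1, the difference of double-null from T-bet-null cells was 2.62 and that of STAT6-null from T-bet-null cells 4.70.

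Of 10 other genes listed as FAM20 or secretory pathway kinases, 4 were in the table and 3 were tested. In double-null cells 1 was higher (16.4% of all genes) and 0 lower (16.2%) than in T-bet-null cells (median -0.12). Against STAT6-null cells 1 was higher (11.3%) and 0 lower (8.63%) in double-null cells (median 0.02). The 1 higher was Pkdcc in both. Fam69c, below the level needed for a test, had the genotype order of Fam20a over a smaller range: 0.200 and 0.385 FPKM in WT, 0.467 and 0.462 in T-bet-null, 1.08 and 0.970 in STAT6-null and 0.780 and 0.855 in double-null libraries. It was named after its values were seen. Fam20b, a xylose kinase of proteoglycan synthesis, lay between 4.2 and 5.18 FPKM in all 8 libraries and was not called between mutants. Fam20c is not in the table. Pkdcc, a secreted tyrosine kinase of the same wider family, was at 0.308 and 0.259 FPKM in WT, 0.854 and 0.861 in T-bet-null, 0.833 and 1.01 in STAT6-null and 4.2 and 5.41 in double-null libraries, the course of Areg and Npy and not of Fam20a. Pkdcc was higher in double-null cells than in T-bet-null (1.64, adjusted p = 2.79e-05) and STAT6-null cells (1.59, adjusted p = 3.53e-05). Outside double-null cells Pkdcc reached 1 FPKM in STAT6-null replicate 2 alone, so it passed the filter through the cells where it was high. Its adjusted p-values are therefore no separate evidence. The genes closest in course to Fam20a were the serine protease inhibitor gene Serpina3g (r = 0.991), the metallothionein gene Mt2 (0.987) and Chn1 (0.982), which encodes a Rac GTPase activator. Serpina3g had mean levels of 24.4 FPKM (WT), 26.2 (T-bet-null), 142 (STAT6-null) and 56.7 FPKM (double-null).

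Sema7a encodes a semaphorin held to the membrane by a lipid anchor, from which it can be shed, and which acts on integrins and plexin C1 of neighbouring cells. Its locus is chr9:57939596-57962865 on the plus strand. Sema7a was at 12.4 and 13.3 FPKM in WT, 45.7 and 43.5 in T-bet-null, 150 and 141 in STAT6-null and 56.8 and 61 in double-null libraries. Replicates were within 1.07 times of each other in every genotype, and no genotypes overlapped. STAT6-null cells had 3.27 times the T-bet-null level (1.69 ± 0.06, adjusted p = 5.04e-07). Double-null cells had 0.404 times the STAT6-null level (-1.29 ± 0.06, adjusted p = 4.87e-06) and 1.32 times the T-bet-null level (0.39 ± 0.06, adjusted p = 0.00237). The genes closest in course were Fam83g (r = 0.996), Socs2, a feedback inhibitor of cytokine receptors (0.994), and the lysophosphatidic acid receptor gene Lpar3 (0.988).

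Most other genes of the semaphorin list were lower than in WT. Of 11 other semaphorin, plexin and receptor genes tested (27 listed, 16 in the table), 0 were higher and 11 lower in double-null than in WT cells (median -0.68), where 36.7% of all genes were lower. In T-bet-null against WT cells 1 was higher (34.2% of all genes) and 10 were lower (36.3%; median -0.57), and in STAT6-null against WT cells 0 were higher (34.9%) and 9 lower (36.1%; median -0.84). The 1 higher was Sema4b, a semaphorin of the cell membrane, in T-bet-null cells (0.45, adjusted p = 0.000751). Sema6d, at 2.07 and 2.73 FPKM in WT, stood at 3.11 and 2.86 in STAT6-null libraries, above WT without overlap but not called (0.23, adjusted p = 0.0647). Sema4d, the most abundant semaphorin of the list, was at 73.0 and 74.8 FPKM in WT and at 36.5 and 39.9 in double-null libraries (-0.94, adjusted p = 1.85e-06), and Sema4c fell from 6.22 and 6.54 to 1.42 and 1.08 (-1.72, adjusted p = 6.63e-07). Plxnc1, the plexin that binds Sema7a, was at 5.93 and 6.98 FPKM in WT, 4.43 and 4.31 in T-bet-null, 2.90 and 2.70 in STAT6-null and 2.94 and 3.30 in double-null libraries. Itgb1, the beta chain of the integrins that bind Sema7a, was at 101 and 105 FPKM in WT and 69.1 and 68.4 in double-null libraries (-0.58, adjusted p = 1.49e-05). Between mutants 2 of the 11 were higher and 6 lower in double-null cells than in T-bet-null ones, and 1 was higher and 3 lower than in STAT6-null cells.

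Promoters were read for the 7 members that the RefSeq promoter table holds (GRCm38.p6, the assembly of mm10), as the 250 bases before the start that table uses, and searched on both strands for 6 motifs. For 5 of the 7 that start is the outer end of the RefSeq gene given above. The windows of Sema7a and Fam20a lie inside the gene as given above, since the table uses a start further in. The STAT6 motif TTCNNNNGAA occurred in 0 of 7 and in 5.85% of all 32851 promoters of the table, the general STAT motif TTCNNNGAA in 0 of 7 and 7.02%, and the T-box motif GGTGTGA, which T-bet binds, in 0 of 7 and 3.33%. The AP-1 motif TGANTCA, for the Fos and Jun factors that PMA activates, occurred in Mmp13 and in 6.75% of all promoters. The cAMP response element TGACGTCA occurred in Areg and in 1.55% of all, and the TATA box TATAAA in Mmp13 and Areg and in 12.4% of all. None of these motifs overlapped another in these promoters. Shown here are 3 sequences in the direction of transcription with matches in capitals: Areg (chr5:91139349-91139598) and Mmp13 (chr9:7272264-7272513), which hold the matches, and Esm1 (chr13:113209409-113209658), which shares the double-null peak of Areg but holds none. All 3 are on the plus strand, 5′ to 3′.
Areg: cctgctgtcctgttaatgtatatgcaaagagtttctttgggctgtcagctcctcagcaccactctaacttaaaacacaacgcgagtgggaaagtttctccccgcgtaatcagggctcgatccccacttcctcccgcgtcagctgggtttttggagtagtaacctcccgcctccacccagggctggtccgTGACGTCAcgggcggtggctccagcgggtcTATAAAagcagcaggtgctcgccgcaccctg
Mmp13: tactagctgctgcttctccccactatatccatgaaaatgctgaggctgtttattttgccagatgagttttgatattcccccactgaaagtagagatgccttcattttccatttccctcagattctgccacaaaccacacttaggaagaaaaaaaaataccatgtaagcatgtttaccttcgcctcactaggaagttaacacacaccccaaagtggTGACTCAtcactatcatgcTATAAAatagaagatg
Esm1: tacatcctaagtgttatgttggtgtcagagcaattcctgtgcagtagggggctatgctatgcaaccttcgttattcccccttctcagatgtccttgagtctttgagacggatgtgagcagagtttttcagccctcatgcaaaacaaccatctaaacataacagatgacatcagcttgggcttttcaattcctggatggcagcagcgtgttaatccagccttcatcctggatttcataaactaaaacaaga
In Areg the response element began 61 bases and the TATA box 31 bases before the start, and in Mmp13 the AP-1 motif began 35 bases and the TATA box 16 bases before it. A match is a description of letters, not of binding, and these windows leave out more distant elements.

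Over the 32 pairs of replicates (8 genes in 4 genotypes), 25 differed by less than 1.25 times and 3 by more than 1.5 times. The 3 were Timp1 in WT (2.61 times), Fam20a in WT (1.76 times) and Npy in double-null cells (2.11 times), of which the first and the second rest on few fragments and Npy does not, with roughly 1062 and 2470 fragments.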

How the data were processed

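RNA of 8 libraries, 2 per genotype, was given as 1 table. The values are FPKM made by the authors and deposited as such, with Cufflinks and build mm10 per the submitters' processing notes and RefSeq genes per the table's name. The aligner, the versions and the strand setting were not given in the sources used here. All 11906 lines lay above 0.1 FPKM in every library, so genes at or below that in any library have no value here. Where a symbol had more than 1 line (43 symbols), that of the highest mean stayed in (65 set aside), and 17 names turned into dates were not named. Genotypes were taken from the sample titles.

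From the steps of 503 genes under 0.5 FPKM, the deepest library had 1.22 times the fragments of the shallowest. An approximate depth of 19400000 fragments in WT replicate 1 (from 43 genes, with values within 0.05 of whole steps) and the longest RefSeq transcript gave the approximate fragment numbers. FPKM are not counts, so count tests were not used.

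Tests used limma 3.58.1 (R 4.3.3). Values entered as log2(FPKM + 1), over 10281 genes with at least 1 FPKM in at least 2 libraries, 1 fit of all 8 libraries, 4 residual degrees of freedom, eBayes with an intensity trend, two-sided, Benjamini-Hochberg over all genes, called at 0.05. An exact permutation test of 2 against 2 cannot go below 0.333 and was not used. The script was tested on simulated data. The 8 genes, the lists and the rules for naming genes were chosen with earlier results of these data known. From each of 6 family lists, the genes with the largest called differences and the direct partners of the 8 genes were named, and for each of the 8 up to 3 genes with the highest Pearson r. Some genes that these rules name are not reported here. Python 3.11.15 and pandas 2.3.3 were used. Alternatives tried were the pseudocount, the filter, quantile normalization, the trend, the WT libraries, a replicate block and leaving out each library. Median of ratios scaling of the libraries was tried as well.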

Additional observations from a re-analysis of the deposited data

Results flagged for a closer look

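The loss of T-bet went with opposite movement of 2 of the 8 genes depending on STAT6. With STAT6 present, every T-bet-null library was above both WT libraries for Fam20a (0.60 on log2(FPKM + 1)) and Sema7a (1.72). With STAT6 lost, every double-null library was below both STAT6-null libraries for Fam20a (-1.91) and Sema7a (-1.29). The difference between these effects was not tested, since the rise over WT was used to choose the genes. The share of all genes with such opposite movement was not computed. The count of 2 is therefore a description of these genes and cannot be set against other genes.

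Among partners and relatives of the 8 genes, 4 had library values that lay apart in opposite directions, but both differences passed limma's test for Timp2 alone. Itgb1, Furin, Pam, Cpd and Npy1r, read in the same way, had no such opposite movement. The share of all genes with it was not computed, so the count is a description. STAT6 loss gave -0.38 with T-bet and 0.66 without it for Timp2 (adjusted p = 0.00112 and 0.000294). For Adam17 it gave -0.38 (adjusted p = 0.000154) and 0.15 (0.0557). T-bet loss gave -0.47 with STAT6 (adjusted p = 0.00122) and 0.12 without it (0.394) for Plxnc1. For Fam20b it gave -0.11 (adjusted p = 0.163) and 0.02 (0.852), neither of which passed. These differences between effects were not tested.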

How the results depend on the processing

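Of 384 recomputed differences between mutants of the 8 genes, 381 kept their call, and the other 3 are those of Esm1 in STAT6-null against T-bet-null cells, which then passed. Over WT, 220 of 240 recomputed differences moved by less than 1 SD of the replicates; the other 20 came from quantile normalization and, for the most part, from a pseudocount of 0.1 FPKM, which raised Fam20a in STAT6-null over WT from 4.32 to 6.46. The number of genes called, 3351 between double-null and T-bet-null cells, ranged from 1631 to 3308 when 1 library was left out; between double-null and STAT6-null cells it was 2044 and ranged from 840 to 2074, and between STAT6-null and T-bet-null cells 2799 and from 1443 to 3084. It fell by over 1.5 times without either T-bet-null library or double-null replicate 2 in the first, without either STAT6-null library or double-null replicate 2 in the second, and without any T-bet-null or STAT6-null library in the third, where 1 sample is left in a genotype and is assumed to vary like the others. A replicate block, which pairs libraries by their number, gave 3091, 1836 and 2660 calls and changed no call of the 8 genes. Numbers pair nothing in the labels, and the deviations of same-numbered libraries correlated at -0.09 to 0.09 over the 6 pairs of genotypes. Few fragments limit the WT values of Timp1 and Fam20a.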
